A study of Avicennia schaueriana with 18 samples.

Results

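Flowers of equatorial *Avicennia schaueriana* trees, a mangrove species of the Atlantic coast of South America, were compared with leaves of the same site across all transcripts of the deposited count table. The comparison used 5 of the 18 libraries of the series, chosen by their organ and site labels: flowers of the trees Eq4 and Eq5, which are only 2 libraries, and leaves of the trees Eq4, Eq5 and Eq6. The study sampled leaves, stems and flowers of wild adult trees in bloom, 3 at an equatorial and 3 at a subtropical site, and sequenced RNA with 1 library for each organ of each tree. No tree received a treatment, and the replicates are separate trees. The trees were wild and of unstated genotype, and the labels do not give leaf age or the stage and parts of the flowers. By the labels, the same index barcode marked a tree in every organ, so that organ and sequencing pool cannot be told apart if each organ was pooled on its own. The leaf and flower libraries of Eq4 and Eq5 share a tree and a sampling time.

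The flower library labelled Eq6 was left out because its origin is in doubt. Of 65 transcripts counted in each of the subtropical leaf and stem libraries and in none of the equatorial ones, it counted 53, whereas the flower libraries of Eq4 and Eq5 counted 3 each and subtropical flowers counted 48 to 59. The 5 libraries used held 5055480 (flowers of Eq4) to 14313994 (leaves of Eq4) uniquely mapped reads. No pair of replicates was as alike as sampling noise alone would make it, with at least 26.0 chi-square units per transcript.

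A leaf is built around chloroplasts, whose photosystems turn light into chemical energy. A flower is a short shoot of sepals, petals, stamens and carpels, in which much of the tissue holds few or no working chloroplasts and new cells expand and lay down walls. Genes of photosynthesis are therefore known to be expressed less in petals, stamens and carpels than in leaves, while pollen and ovule tissues express many genes that vegetative organs keep silent. Levels below are CPM, the reads of a transcript scaled to a common library size, from organs taken whole. Fewer cells of a type and less RNA per cell cannot be told apart in such samples. Gene names are those of the best match in *Arabidopsis thaliana* that the study gave a transcript, and the roles named are those known from that species.

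The polymerase chain reaction primers that the study designed for its expression assays identify the transcripts, and those of the 4 assayed transcripts with the largest differences between flowers and leaves are shown because results below turn on them. They are written 5′ to 3′ in lower case.
PSAO left: aacagtccaaggtgccacag
PSAO right: aagcattccggccatcaacg
GOLS left: tttgaacccgccaaatccac
GOLS right: acgcatttggaatcggcttg
DNAJ left: ggaaatgagcagccaaatcagc
DNAJ right: attgccatctcgcttgaaggtg
CAO left: tgcttgatggggcgaatgtc
CAO right: tccactgaatccctccatagcc

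A large part of the transcripts differed between flowers and leaves. Of 31113 transcripts tested, 9194 (29.6%) were differentially expressed at an adjusted p under 0.05 by edgeR's quasi-likelihood test, and these are called DETs here. Flowers were higher for 5142 (16.5%) and lower for 4052 (13%). The median difference among DETs was 7.39-fold for the higher and 5.36-fold for the lower ones, and the median log2 fold change of all transcripts tested was -0.07. A difference of more than 3 on the log2 scale was reached by 2500 of the higher and 1432 of the lower DETs. Libraries of the organs did not overlap for 19254 transcripts (61.9%), of which 9571 (30.8%) had both flower libraries above all leaves and 9683 (31.1%) had both below. Over the 500 transcripts that differed most in a pair of libraries, the leading log2 difference was 3.40 between both flowers, 3.42 to 3.92 among leaves and 7.69 to 8.43 between organs. The plot of fold change against abundance shows DETs at every level of expression.

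**Figure D1:**
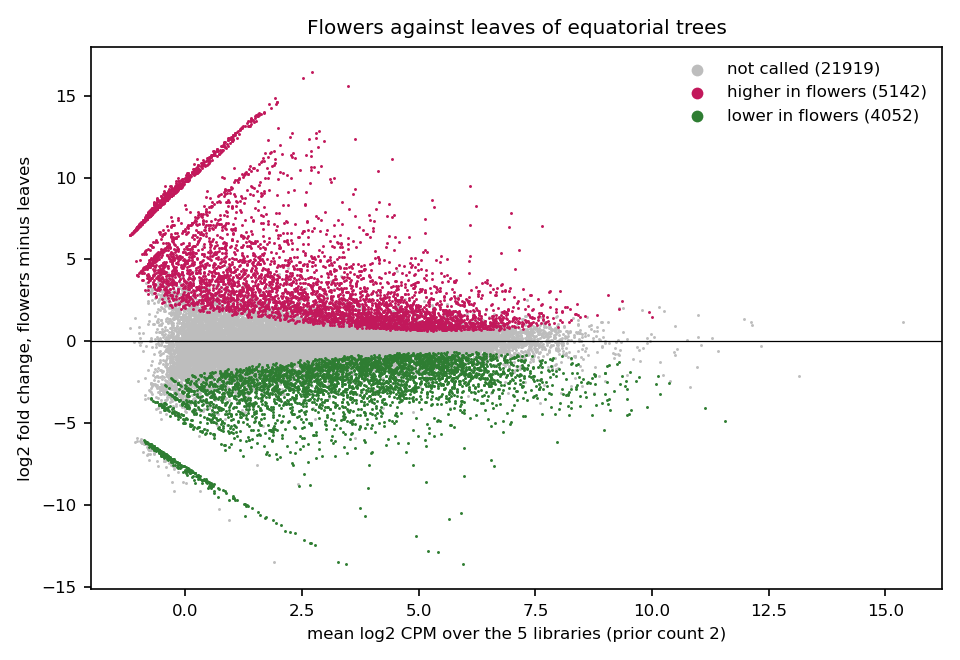
Log2 fold change of flowers minus leaves against mean log2 CPM (prior count 2) for the 31113 transcripts tested, 1 point each. The 5142 transcripts higher in flowers and the 4052 lower in flowers are coloured, and the straight bands at the left are transcripts with few or no counts in one organ.

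The shares of counts held by the DETs describe how large a part they made of each library. The direction of these shares is no separate result, because the DETs were picked for it in the same libraries. The higher DETs took 28.3% of the counts in the flowers of Eq4 and 33.5% in those of Eq5, against 5.76% to 6.69% in leaves. The lower DETs took 28.9% to 32.1% of the counts in leaves and 5.61% and 5.44% in the flowers of Eq4 and Eq5. Coding and non-coding transcripts were split differently by direction. Among 23801 coding transcripts tested, 18.8% were higher and 12.7% lower in flowers, whereas among 7312 non-coding ones 9.08% were higher and 14.2% lower. The shares by coding class were not tested against each other.

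Some transcripts were present in one organ and uncounted in the other. Among DETs, 610 had flower counts and no count in any leaf library, and 296 had leaf counts and no count in either flower library. The transcripts with the largest rise and fall have no gene name in the sources used here. The largest rise was As_24073, with 930.2 CPM in flowers of Eq4 and 1440.4 CPM in flowers of Eq5 and no count in leaves. Its level was at least 13319-fold higher in flowers, against a floor of 3 counts over the leaf libraries together. As_22493 followed with 531 and 1295 CPM in flowers and none in leaves, at least 10261-fold higher against the same floor. In the subtropical trees both transcripts were also uncounted in leaves. On the falling side, As_18368 stood at 228, 193 and 77.2 CPM in leaves of Eq4, Eq5 and Eq6 and at 0 in both flower libraries, at least 795-fold lower. As_27851 had 2772, 2156 and 1194 CPM in leaves, 0.415 CPM in flowers of Eq4 and no count in flowers of Eq5. All 4 were DETs by edgeR's quasi-likelihood test (adjusted p = 0.00229, 0.00289, 0.00314 and 0.00248).

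No feature of whole libraries passed a test between the organs. Non-coding transcripts took 5.90% ± 1.24 (SD, n = 2) of the counts in flowers and 5.22% ± 0.03 (SD, n = 3) in leaves (exact two-sided permutation test, p = 0.4). The 10 most abundant transcripts took 17.1% of the counts in flowers of Eq4, 7.39% in flowers of Eq5, and 10.6%, 11.8% and 8.15% in leaves of Eq4, Eq5 and Eq6 (p = 0.8 by the same exact permutation test). With every library thinned to 5055480 counts, 39197 and 39884 transcripts were detected in flowers and 40759, 39030 and 40578 in leaves (exact permutation test, p = 0.5). Without flowers of Eq4 the difference of flowers minus leaves turned from 0.681 to -0.193 percentage points for the non-coding share and from 2.08 to -2.80 for the 10 most abundant transcripts, and the latter was -0.566 with the flower library labelled Eq6. The difference in transcripts detected turned from -582 to 903 with that library. This design has 10 splits and cannot give a p below 0.1.

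Transcripts of photosynthesis were lower in flowers. Most lists used from here on are functional headings of the study. Those headings group transcripts that differed between sites in leaves or stems. They were selected partly on the leaf libraries used here and are not independent evidence of a direction. Of 8 photosynthesis transcripts, 5 were lower in flowers, 1 was higher and 2 did not pass, against 13% lower and 16.5% higher among all transcripts tested, and their median log2 fold change was -2.70. The transcript similar to PSAO (As_26420), a subunit of photosystem I, stood at 154, 99.9 and 142 CPM in leaves of Eq4, Eq5 and Eq6 and at 21.8 and 6.50 CPM in flowers of Eq4 and Eq5. Both flowers lay far below every leaf, a difference of -3.25 ± 0.58 (log2, SE; 9.49-fold, adjusted p = 0.0110). PSBO1 (As_16502), which stabilises the manganese cluster that splits water in photosystem II, had 70.7, 38.1 and 30.1 CPM in leaves against 9.13 and 4.09 CPM in flowers (-2.84 ± 0.55, adjusted p = 0.0140).

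The deepest falls in that list were those of transcripts similar to PsbQ-like proteins, which in Arabidopsis are needed for the chloroplast NADH dehydrogenase-like complex. PQL2 (As_24908) had 25.6, 24.9 and 41.9 CPM in leaves against 1.66 and 0.420 CPM in flowers, 33.0-fold lower (log2 -5.05 ± 0.63, adjusted p = 0.00445). PQL3 (As_26953) had 8.23, 8.01 and 11.7 CPM in leaves, 1.25 CPM in flowers of Eq4 and no count in flowers of Eq5 (-4.21 ± 1.08, adjusted p = 0.0320). The call of PQL3 was lost without the leaves of Eq4 or of Eq5 and with the flower library labelled Eq6 (adjusted p up to 0.265 over all alternatives). PHOT2 (As_13960), a blue light receptor that moves chloroplasts and was picked here after its values were seen, fell from 221, 243 and 98.4 CPM in leaves to 23.2 and 40.6 CPM in flowers (-2.55 ± 0.51, adjusted p = 0.0154). The exception was ABC4 (As_25935), a prenyltransferase of phylloquinone synthesis, at 21.0 and 22.3 CPM in flowers and 2.25, 1.46 and 3.20 CPM in leaves, 9.29-fold higher in flowers (3.22 ± 0.38, adjusted p = 0.00396). Not passing were ATPD (As_27536), the delta subunit of ATP synthase in plastids, at -0.37 ± 0.50, and PSB27 (As_15863), a photosystem II protein, at -1.52 ± 0.66 (adjusted p = 0.129). With the tree as a replicate block PSB27 passed (adjusted p = 0.0317).

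Taken as markers of green tissue, PSBO1, PSAO, PSB27, PQL2, PQL3 and ATPD summed to 280, 180 and 243 CPM in leaves of Eq4, Eq5 and Eq6 and to 44.2 and 15.9 CPM in flowers of Eq4 and Eq5. These 6 markers were picked from the 8 photosynthesis transcripts. Left out were PHOT2, lower in flowers, and ABC4, higher in flowers. Of the 6 markers 4 were lower in flowers, and PQL3 was uncounted in 1 flower library. Every leaf was above both flowers, and flowers of Eq4 were above flowers of Eq5. The part of that difference in the other results was not tested. The plot of marker sums shows this beside a pair of other marker lists.

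**Figure D2:**
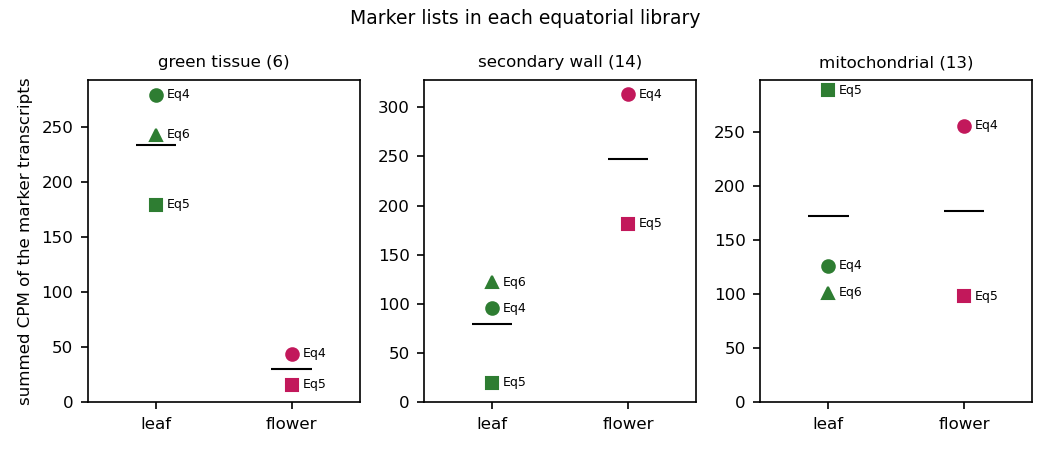
Summed CPM of 3 marker lists (number of transcripts in brackets) in each leaf and flower library, with the mean of each organ as a line. Green tissue markers are at 180 CPM or above in leaves and at 44.2 CPM or below in flowers. Secondary wall markers, picked from the study's cell wall heading, are higher in both flowers than in any leaf, and mitochondrial transcripts overlap between organs.

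Isoprenoid precursors for chlorophyll side chains moved in both directions. ISPD (As_48417), an enzyme of the plastid methylerythritol phosphate pathway, had 37.0, 26.1 and 17.5 CPM in leaves against 4.15 and 2.62 CPM in flowers (-3.01 ± 0.45, adjusted p = 0.00699), and lost its call without the flowers of Eq5 (adjusted p up to 0.0624 over all alternatives). IPP1, isopentenyl diphosphate isomerase, which interconverts the C5 building blocks, was matched by a pair of transcripts. As_21256 had 31.5 and 27.6 CPM in flowers and 2.11, 0.485 and 0.711 CPM in leaves, 25.3-fold higher in flowers (4.66 ± 0.58, adjusted p = 0.00450). As_19328 had 50.8 and 96.3 CPM in flowers and 173, 182 and 61.7 CPM in leaves, with overlapping organs (-0.91 ± 0.54, adjusted p = 0.246). Of the 6 transcripts under chlorophyll biosynthesis 1 was higher, 1 lower and 4 did not pass, where 16.5% of all transcripts were higher and 13% lower. In the block fit, which called 4694 of 31113 transcripts lower, those 4 passed as lower in flowers (adjusted p = 0.00143 to 0.0140). In each of these 4 the leaves of Eq6, which have no flower partner in that fit, were the lowest of the leaves. One of them, CLA1 (As_26117), of the first step of the plastid pathway, had 28, 172 and 0 counts in leaves of Eq4, Eq5 and Eq6 and none in flowers.

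Enzymes that remove superoxide moved in both directions. FSD2 (As_15772), an iron superoxide dismutase of plastids, had 611, 559.5 and 575 CPM in leaves against 131 and 169.7 CPM in flowers (-1.95 ± 0.32, 3.87-fold, adjusted p = 0.00843). CSD1 (As_17209), a copper/zinc superoxide dismutase of the cytosol, had 248 and 230.4 CPM in flowers and 80.4, 87.3 and 47.6 CPM in leaves (1.74 ± 0.32, 3.33-fold, adjusted p = 0.0119). Both calls were lost when either flower library was left out (adjusted p up to 0.0676 and 0.0656 over all alternatives). A further transcript similar to CSD1 (As_26546) did not pass at 0.86 ± 0.57, and CSD2 (As_38172), of plastids, stood at 1.80 ± 0.62 with flowers above all leaves (adjusted p = 0.0725, and 0.0151 with the tree as a block). DRT102 (As_14939), known for tolerance of DNA damage, fell from 19.0, 14.6 and 15.1 CPM in leaves to 2.08 and 1.78 CPM in flowers (-3.08 ± 0.34, adjusted p = 0.00330). TT7 (As_3457), a flavonoid 3′-hydroxylase, had 4.15 and 7.24 CPM in flowers and 1.55, 0.728 and 1.60 CPM in leaves (2.12 ± 0.52, adjusted p = 0.0280). Of 8 transcripts under this heading, 2 were higher, 3 lower and 3 did not pass, beside 16.5% higher and 13% lower of all transcripts. When either flower library was left out, only DRT102 kept its call.

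Vitamin synthesis showed opposite directions. VTC2 (As_15617), GDP-L-galactose phosphorylase, the controlling step of ascorbate synthesis, had 108 and 239 CPM in flowers and 12.2, 15.2 and 11.3 CPM in leaves. The flowers were 13.5-fold higher (3.76 ± 0.38, adjusted p = 0.00288), and the call held under every alternative run. PMM (As_18774), phosphomannomutase of the same pathway, stood at 3.94 and 1.78 CPM in flowers and 3.94, 3.03 and 3.47 CPM in leaves (-0.32 ± 0.50). For vitamin B6, both transcripts similar to PDX2, the glutaminase of pyridoxal phosphate synthase, were lower in flowers. As_48360 had 20.8, 30.7 and 15.7 CPM in leaves against 5.81 and 8.18 CPM in flowers (-1.66 ± 0.38, adjusted p = 0.0234), and As_4337 had 20.3, 27.8 and 13.4 CPM in leaves against 4.98 and 6.71 CPM in flowers (-1.79 ± 0.40, adjusted p = 0.0212). Reads of such near copies may be split between them. Both lost the call without either flower library (adjusted p up to 0.146 and 0.134 over all alternatives).

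**Figure D3:**
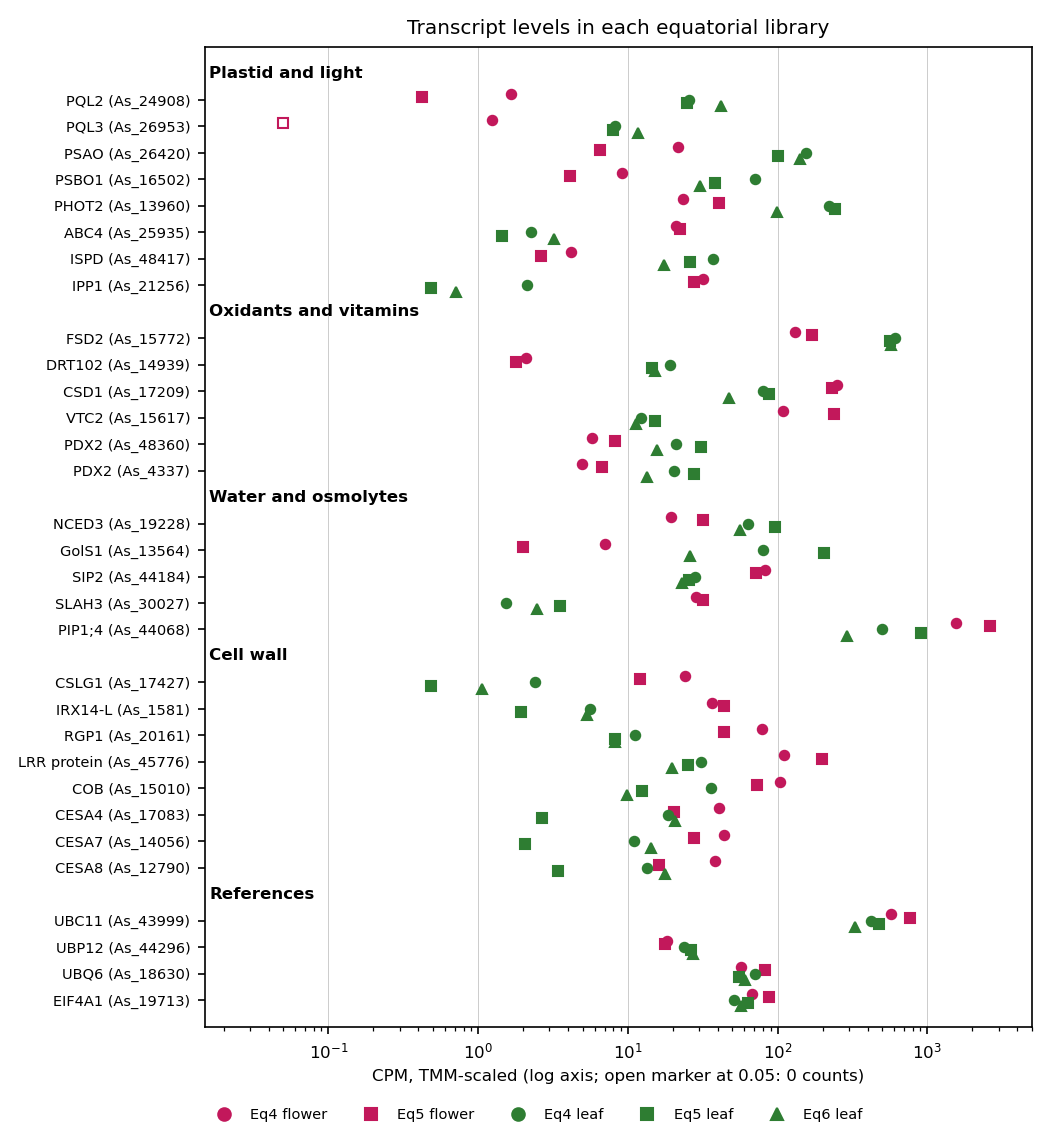
CPM on a log axis of 31 transcripts in the 3 leaf and 2 flower libraries, grouped by function, 1 marker per library with its tree as the shape. Photosynthesis transcripts shown other than ABC4 lie lower in flowers, VTC2, SLAH3 and IRX14-L lie higher, and the 4 reference transcripts differ by at most 0.71 on the log2 scale.

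Among 6 transcripts under anthocyanin biosynthesis, 1 was lower in flowers and none was higher, beside 13% lower and 16.5% higher of all transcripts. With 6 transcripts these counts are no result about the group. The lower one was HY5 (As_46493), a transcription factor of development in light, with 49.6, 59.8 and 27.2 CPM in leaves against 12.0 and 18.6 CPM in flowers (-1.56 ± 0.41, adjusted p = 0.0339). Its call was lost without either flower library and without the leaves of Eq4 or Eq5 (adjusted p up to 0.200 over all alternatives). A further transcript similar to HY5 (As_36206) did not pass. Scaled over all 18 libraries, it had 14.8, 16.7 and 11.1 CPM in equatorial leaves and 10.3 and 15.0 CPM in flowers of Eq4 and Eq5. 4CL2 (As_13197), 4-coumarate:CoA ligase of the phenylpropanoid pathway, had both flowers above the leaves (2.19 ± 0.79, adjusted p = 0.0834, and 0.0193 with the tree as a block). FAH1 (As_9876), an enzyme of ultraviolet-screening sinapate esters and the only transcript under protection against ultraviolet light, was too low to be tested, as were both transcripts under photorespiration (As_31165 and As_46832).

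Of 4 transcripts under water deficit 1 was lower in flowers, and of 4 under osmoregulation 1 was lower and 1 higher, where 13% of all transcripts were lower and 16.5% higher. NCED3 (As_19228), the controlling step of abscisic acid synthesis, had 63.2, 96.2 and 56.4 CPM in leaves against 19.5 and 31.6 CPM in flowers (-1.49 ± 0.35, adjusted p = 0.0253). The other members of that heading were transcription factors and did not pass: HB-7 (As_17082) at -2.10 ± 0.68 (adjusted p = 0.0610, and 0.0163 with the block), RD26 (As_12052) at 0.93 ± 0.44 and RAP2.4 (As_11218) at -0.85 ± 0.27 (adjusted p = 0.0616). GolS1 (As_13564), galactinol synthase, the first step towards raffinose, had 79.9, 205 and 25.9 CPM in leaves against 7.06 and 1.99 CPM in flowers. Leaves varied widely among trees, and flowers were 24.0-fold lower (-4.58 ± 1.10, adjusted p = 0.0261). SIP2 (As_44184), an enzyme that breaks raffinose down, had 82.2 and 72.1 CPM in flowers and 28.3, 25.6 and 23.0 CPM in leaves (1.59 ± 0.20, adjusted p = 0.00472). RFS4 (As_11264) and SIP1 (As_13250), of the synthesis of raffinose family sugars, did not pass at -1.93 ± 1.02 and -0.70 ± 0.92, and SIP1 passed with the block (adjusted p = 0.0368). NCED3 and GolS1 lost the call without either flower library (adjusted p up to 0.226 and 0.155 over all alternatives).

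Of 5 transcripts under ion and water transport, 1 was higher and 4 did not pass, beside 16.5% higher of all transcripts. SLAH3 (As_30027), an anion channel for nitrate and chloride, had 28.6 and 31.8 CPM in flowers and 1.55, 3.52 and 2.49 CPM in leaves, 12.1-fold higher in flowers (3.60 ± 0.38, adjusted p = 0.00303). The most abundant member was the aquaporin PIP1;4 (As_44068, picked after its values were seen), with 1550 and 2623 CPM in flowers and 501, 908 and 290.3 CPM in leaves. Its flowers lay above every leaf without passing (1.88 ± 0.59, adjusted p = 0.0574). In the block fit PIP1;4 passed (adjusted p = 0.0232), and the counts under this heading were 3 higher and 1 lower. Of all 31113 transcripts, the block fit called 5546 higher and 4694 lower.

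Of 6 transcripts tested under the response to cold 1 was higher and 2 lower in flowers, and of 7 under the response to heat 2 were higher. Among all transcripts 16.5% were higher and 13% lower, and such short lists cannot be set apart from that. As_3802, similar to an NAD(P)-linked oxidoreductase, had 16.6 and 22.7 CPM in flowers and 1.41, 2.91 and 1.07 CPM in leaves (3.48 ± 0.48, adjusted p = 0.00571). As_20859, similar to an adenine nucleotide alpha hydrolase, had 125 and 109 CPM in flowers and 14.6, 30.4 and 8.98 CPM in leaves (2.70 ± 0.50, adjusted p = 0.0122). A transcript similar to HSP70 (As_43445), a chaperone, was low, at 1.66 and 2.83 CPM in flowers and 0.492, 0.243 and 0.267 CPM in leaves (2.68 ± 0.60, adjusted p = 0.0217, and 0.0935 with the tree as a block). Beside PQL3, which the study also placed under cold, ATRZ-1A (As_16912), an RNA-binding protein known from cold tolerance, was lower in flowers by a small margin (-0.85 ± 0.25, adjusted p = 0.0477, up to 0.236 over the alternatives). AGL24 (As_10296), a MADS-box factor that promotes flowering, had 6.68, 0.970 and 10.4 CPM in leaves, 1.25 CPM in flowers of Eq4 and no count in flowers of Eq5 (-3.57 ± 1.51, adjusted p = 0.123, and 0.0292 with the block).

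Of 35 cell wall transcripts tested, 6 were higher in flowers, 1 was lower and 28 did not pass. The higher share was near the 16.5% of all transcripts, and the lower share was below the 13% of all transcripts. Both flowers were above all leaves for 17 of the 35 and below all leaves for 4 of the 35. Of all transcripts, 30.8% lay above and 31.1% below, so that the list had more above and fewer below. These shares were not tested against each other. Their median log2 fold change was 1.30, against -0.07 over all transcripts. IRX14-L (As_1581), of xylan synthesis, had 36.7 and 44.1 CPM in flowers and 5.63, 1.94 and 5.33 CPM in leaves (3.21 ± 0.45, 9.26-fold, adjusted p = 0.00592). CSLG1 (As_17427), a protein like cellulose synthase, had 24.1 and 12.1 CPM in flowers and 2.39, 0.485 and 1.07 CPM in leaves (3.71 ± 0.65, adjusted p = 0.0108). RGP1 (As_20161), which makes the arabinofuranose donor for wall polymers, had 78.5 and 44.1 CPM in flowers and 11.2, 8.25 and 8.27 CPM in leaves (2.72 ± 0.32, adjusted p = 0.00383). The flowers stood above every leaf in each of these. The remaining higher DETs, named after their values were seen, were As_45776, similar to a leucine-rich repeat protein (2.61 ± 0.34), As_15010, similar to COBRA, which orients cell expansion (2.18 ± 0.57), and As_19757, similar to a trichome birefringence-like protein (1.64 ± 0.44). IRX9-L (As_3825), also of xylan synthesis, was the DET lower in flowers, with 2.11, 4.37 and 1.07 CPM in leaves against 0.415 and 0.105 CPM in flowers (-3.41 ± 1.02, adjusted p = 0.0499, at the threshold).

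Genes of the secondary wall, which thickens xylem vessels and fibres, varied widely among the leaves. The cellulose synthase CESA7 (As_14056) had 44.2 and 27.7 CPM in flowers and 11.0, 2.06 and 14.2 CPM in leaves (1.97 ± 0.70, adjusted p = 0.0796). CESA4 (As_17083) had 40.5 and 20.4 CPM in flowers and 18.5, 2.67 and 20.5 CPM in leaves (1.11 ± 0.77, adjusted p = 0.313), and CESA8 (As_12790) had 38.2 and 16.1 CPM in flowers and 13.5, 3.40 and 17.6 CPM in leaves (1.22 ± 0.68, adjusted p = 0.223). Leaves of Eq5 were the lowest for all 3 subunits, and within each of Eq4 and Eq5 the flower was above the leaf. Summed over 14 secondary wall markers, leaves held 95.5, 19.9 and 122 CPM in Eq4, Eq5 and Eq6 and flowers 313 and 181 CPM in Eq4 and Eq5. Only IRX14-L of the 14 was a DET, and 9 of the 14 had both flowers above all leaves, a larger share than the 30.8% of all transcripts. The 14 were picked from the cell wall heading, so this share and these sums depend on the members kept. Left out were both transcripts similar to IRX9-L, whose flowers lay below all leaves. They were the lower DET As_3825 and As_8224. Scaled over all 18 libraries, As_8224 had 4.23, 6.48 and 2.11 CPM in equatorial leaves and 0.932 and 0.127 CPM in Eq4 and Eq5 flowers. Under the whole heading, 17 transcripts had both flowers above all leaves and 4 had both below. With the tree as a replicate block, which compares the flower and leaf of one tree, 21 wall transcripts were higher and 3 lower. Of all 31113 transcripts, that fit called 5546 higher and 4694 lower. In it the 3 cellulose synthases passed (adjusted p = 0.0155, 0.00342 and 0.00488 for CESA4, CESA7 and CESA8). That fit keeps 1 residual degree of freedom. Over the 17 transcripts that passed in it alone, the adjusted p was 0.00342 to 0.0289 against 0.0502 to 0.444 without the block.

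Transcripts of the mitochondrial genome did not separate the organs. The 13 of them summed to 127, 289 and 101 CPM in leaves of Eq4, Eq5 and Eq6 and to 256 and 98.3 CPM in flowers of Eq4 and Eq5, so that 1 library of each organ was high. NAD9 (As_19213), a subunit of respiratory complex I, was the only one to pass, with 17.2, 27.8 and 18.8 CPM in leaves against 8.72 and 5.66 CPM in flowers (-1.58 ± 0.36, adjusted p = 0.0226). ACO3 (As_46521), a nuclear-encoded aconitase and the remaining member under cellular respiration, did not pass at -0.48 ± 0.52.

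Among the transcripts behind the primers above, those similar to DNAJ and CAO were nearly absent from equatorial leaves. The study picked its assay targets among transcripts that differed between sites in leaves. Their level in equatorial leaves is therefore no separate result. The DNAJ transcript (As_26086), similar to a co-chaperone, had 18 and 12 counts in flowers of Eq4 and Eq5 and 0, 0 and 4 counts in leaves of Eq4, Eq5 and Eq6 (4.19 ± 1.21, adjusted p = 0.0455). The CAO transcript (As_12775), whose match in Arabidopsis makes chlorophyll b, had 19 and 29 counts in flowers and 4, 6 and 0 counts in leaves (3.42 ± 0.97, adjusted p = 0.0429). These calls rest on few reads and were lost without either flower library (adjusted p up to 0.270 and 0.184 over all alternatives). None of the 4 reference transcripts of the same assays passed. UBC11 (As_43999), a ubiquitin-conjugating enzyme, had 569 and 769.9 CPM in flowers and 421, 475 and 331 CPM in leaves (0.71 ± 0.34, adjusted p = 0.159), and UBP12 (As_44296), a ubiquitin protease, was at -0.52 ± 0.21 (adjusted p = 0.114). Ubiquitin UBQ6 (As_18630) at 0.16 ± 0.25 and the translation factor EIF4A1 (As_19713) at 0.44 ± 0.23 were the others.

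Of 16 transcripts at loci that the study listed for a signature of selection, 15 were tested, 1 was higher in flowers and 14 did not pass, beside 16.5% higher and 13% lower of all transcripts. ATSLY1 (As_18457), of vesicle traffic, had 57.7 and 61.5 CPM in flowers and 34.3, 27.3 and 23.8 CPM in leaves (1.07 ± 0.23, adjusted p = 0.0188). DEX1 (As_14393), which in Arabidopsis patterns the outer wall of pollen, had 82.8 and 105 CPM in flowers and 70.0, 66.0 and 70.8 CPM in leaves, a difference of 0.45 ± 0.21 that did not pass (adjusted p = 0.160). It was the only pollen wall marker, and both flowers were above all leaves, as they were for 30.8% of all transcripts tested. No transcript named here is a defining marker of flowers, so that the flower label was checked only through the low green tissue transcripts. Scaled over all 18 libraries, those markers summed to 200 to 324 CPM in equatorial leaves and 89.4 to 208 CPM in equatorial stems. In flowers of Eq4 and Eq5 they summed to 49.6 and 19.3 CPM. Over all lists, 124 of 130 transcripts were tested, with 19 higher, 16 lower and 89 not passing. These shares are near the 16.5% higher and 13% lower of all transcripts tested.

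Of these 35 calls, 12 held under every alternative run, which also left out each library in turn. They were PQL2, PSAO, DRT102 and the higher ABC4, IPP1 (As_21256), VTC2, As_3802, SIP2, SLAH3, IRX14-L, RGP1 and As_45776. PSBO1 and ISPD were lost without flowers of Eq5, and CSLG1 without flowers of Eq4. A further 19 were lost when either flower library was left out. These included PHOT2, TT7, HSP70, As_20859, ATRZ-1A, NAD9, IRX9-L, COBRA, As_19757 and ATSLY1 beside those named as such above, and for these 10 the adjusted p ranged up to 0.250 over all alternatives.

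The flower and leaf difference of the subtropical trees, which shares no library with this one, ran largely the same way. Among the 6 subtropical libraries 10839 of 30287 transcripts (35.8%) were DETs, 6076 (20.1%) higher and 4763 (15.7%) lower in flowers. Of the 4292 equatorial DETs higher in flowers and tested at both sites, 3487 were also DETs higher in subtropical flowers, which is 81.2% of the equatorial and 62.5% of the 5582 subtropical ones. Of the 3777 lower in equatorial flowers, 2739 were shared, 72.5% of the equatorial and 59.5% of the 4606 subtropical DETs. Only 7 and 4 DETs, respectively, were called in the opposite direction. Over the 28306 transcripts tested at both sites, the log2 fold changes had a Pearson correlation of 0.862 across transcripts, which are not independent replicates.

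**Figure D4:**
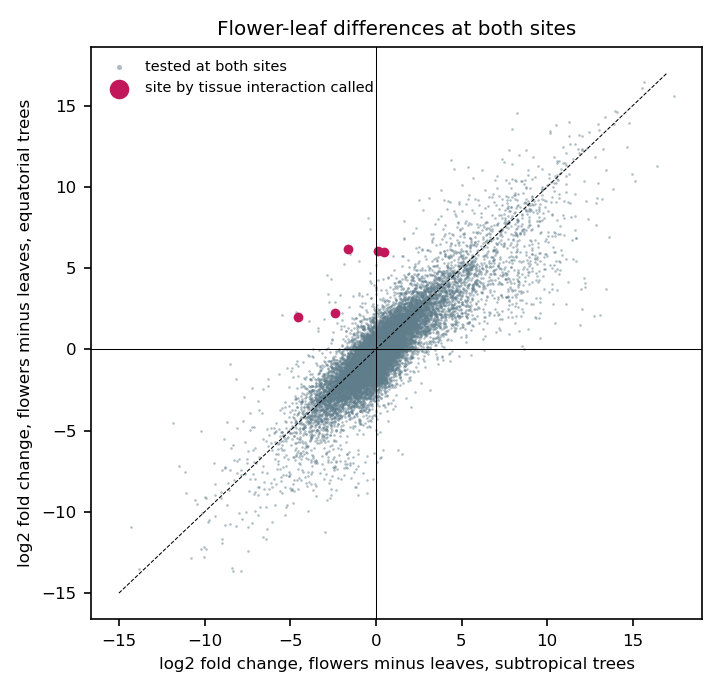
Log2 fold change of flowers minus leaves in equatorial trees (5 libraries) against that in subtropical trees (6 libraries), 1 point per transcript, for 28306 transcripts tested at both sites. Points scatter about the dashed line of equality, and 79.9% of them have the same sign at both sites. The 5 transcripts called by the interaction test lie above that line.

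The difference between sites was tested as the interaction of site and organ over 11 libraries. It called 5 of 36282 transcripts (0.0138%) by edgeR's quasi-likelihood test, all 5 with the signed difference of flowers minus leaves higher in equatorial than in subtropical trees, by 4.65 to 7.80 on the log2 scale. The unadjusted p was under 0.05 for 3580 transcripts (9.87%), and DESeq2 called 454. The largest was As_22963, a transcript with no gene name here and picked after its values were seen. It had 104 and 28.7 CPM in flowers of Eq4 and Eq5 and 1.67 CPM or less in equatorial leaves, against 1.14 CPM or less in subtropical flowers and 1.62 to 2.62 CPM in subtropical leaves. In 2 of the 5 the difference was opposite in sign and larger in size in subtropical trees (2.01 against -4.53 and 2.23 against -2.40). In all 5 transcripts flowers of Eq4 stood above flowers of Eq5, and with the flower library labelled Eq6 included none was called. Because the site of origin of that library is in doubt, adding it cannot check a difference between sites. No list transcript passed. An unadjusted p under 0.05 was found for 48 of 124, in lists most of which the study had chosen for differences between sites. The reference transcripts and the loci with a signature of selection were not chosen for that. They had 0 of 4 and 1 of 15 under 0.05. The lowest adjusted p of the interaction test among the 124 was 0.127, for IRX14-L, whose difference was 3.21 in equatorial and 7.68 in subtropical trees. Scaled over all 18 libraries, IRX14-L had only 0.228, 0.190 and 0 CPM in subtropical leaves. The size of its subtropical difference therefore rests on a leaf level near the floor. CSD2 followed at 0.131, with 1.80 in equatorial and -1.98 in subtropical trees. Secondary wall markers, scaled over all 18 libraries, summed to 111, 22.1 and 138 CPM in equatorial leaves and to 8.13 to 12.3 CPM in subtropical leaves. The part of this leaf level in the wall transcripts' interaction was not tested.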

How the data were processed

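Of the 18 libraries of 6 trees, 5 entered the main comparison, grouped by the labels. The authors assembled the reads into transcripts without a genome, mapped them with Bowtie 0.12.2 (version from the submitters' processing notes) and deposited raw counts of uniquely mapped reads, not normalized. Reads matching several transcripts are not in such counts. Flowers were compared with leaves by edgeR's quasi-likelihood test (edgeR 4.0.16, limma 3.58.1, R 4.3.3) with TMM scaling and the filterByExpr filter, and p was adjusted by Benjamini and Hochberg's method across every transcript tested (threshold 0.05). CPM uses TMM-scaled library sizes. Log2 fold changes are flower minus leaf, and their standard errors were derived from the F statistic (absolute log2 fold change divided by its square root). The fit had 3 residual degrees of freedom and a biological coefficient of variation of 0.386, with 5055480 to 14313994 reads per library. The parts of tree spread and of read depth in the precision were not tested.

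Named transcripts are, per heading of the study's lists, up to 4 DETs with the largest change, every member of lists of 4 or fewer, the markers, references, DEX1 and AGL24, and the 2 largest rises and falls without a gene name (at least 10 CPM in the higher organ). Members and lists were chosen with earlier results of these data known. The labels place leaves and flowers of Eq4 and Eq5 on the same trees, and the deviations of Eq4 from Eq5 correlated at 0.163 between organs. The study's methods name no block, so the tree was a block in an alternative only. Other alternatives were RLE scaling, DESeq2 1.42.0, edgeR's exact test, no filter, 1 fit over 17 libraries, a minimum of 1 CPM exceeded in 2 or more libraries, adding the flower library labelled Eq6, and leaving out each library. The test was tested on simulated data.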

Additional observations from a re-analysis of the deposited data

Results flagged for a closer look

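The interaction of site and organ differed for 5 transcripts, whose signed log2 difference of flowers minus leaves was higher in equatorial than in subtropical trees by the test of that difference itself. None has a gene name in the sources used here. In each, flowers of Eq4 were above flowers of Eq5, and leaving out 1 library at a time gave between 0 and 27 transcripts.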

How the results depend on the processing

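With 2 flower libraries, the number of DETs depended most on those libraries. Leaving out 1 library at a time gave 2983 to 9002 DETs, 2080 to 4960 higher and 903 to 4042 lower in flowers. The fewest were without flowers of Eq5 (2983, of which 2828 were shared with the full set) and without flowers of Eq4 (3410, of which 3327 were shared), where the lone flower is assumed to vary like the leaves. The other alternatives gave 8273 to 12192 DETs. With the tree as a replicate block there were 10240, of which 8226 were shared, and with the flower library labelled Eq6 there were 8510, of which 7190 were shared. Of the 35 list transcripts called, 17 or 18 kept their call without a flower library and 34 with the block, and none changed direction. The 5 transcripts of the interaction became 454 with DESeq2, 3 without a filter, 172 with the replicate block, 0 with the flower library labelled Eq6 and 0 to 27 without 1 library. The difference in the non-coding share turned to -0.193 percentage points without flowers of Eq4 (-0.193 to 1.55 over libraries left out). That in the share of the top transcripts turned to -0.411 for the 100 most abundant, to -0.566 with the flower library labelled Eq6 and to -2.80 without flowers of Eq4 (-2.80 to 6.95). The difference in transcripts detected was 903 with the library labelled Eq6 and -1128 to -238 without 1 library. The cause of these changes was not tested. At this depth, transcripts with a few reads, such as those similar to DNAJ and CAO, cannot be placed firmly.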
